A study of Homo sapiens with 9 samples.

Results

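Wnt ligands, their receptors, their inhibitors and the targets of the pathway were followed as 55 genes of the 26475 in a table of RNA-seq counts. The members were taken by symbol. All WNT, Frizzled (FZD), SFRP and DKK genes were included, with the co-receptors and other receptors LRP5, LRP6, ROR1, ROR2 and RYK, the destruction complex genes AXIN1, AXIN2, APC and GSK3B, the transcription factors TCF7, TCF7L1, TCF7L2 and LEF1, and the pathway inhibitors RNF43, ZNRF3, NKD1, NKD2 and NOTUM. The rule used no measured value, but it was set with earlier results of these data known.

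The cells were hTERT_RPE1, an established human line from the retinal pigment epithelium that carries telomerase, sampled after 24 h on their substrate in 9 libraries. Control cells carried the empty pLKO vector on glass coated with fibronectin (FN). Cells named sh_PIP4K2B were on the same FN-coated glass, and each of their 3 libraries came from another hairpin (#1, #2 and #3) against PIP4K2B, a kinase that phosphorylates the lipid PtdIns5P. Soft cells carried the empty vector on an FN-coated gel of 2.3 kPa. For Control and Soft the titles give the empty vector but a treatment label gives a control shRNA, and which of them the cells carried is not settled. No label says that the 3 Control or the 3 Soft libraries came from separate cultures, and their spread may be technical. In sh_PIP4K2B each library is another hairpin, so differences between hairpins and between replicates cannot be told apart. P-values measure only the spread between these libraries.

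In canonical Wnt signalling a secreted WNT protein binds a Frizzled receptor together with LRP5 or LRP6. The destruction complex of AXIN, APC and GSK3B then stops marking beta-catenin for degradation, and beta-catenin enters the nucleus and activates genes with the TCF/LEF factors. AXIN2, RNF43, ZNRF3, NKD1, NOTUM, LEF1, TCF7 and DKK1 are known targets of beta-catenin, and most of them restrain or retune the pathway that induces them. WNT5A and WNT5B mainly act through beta-catenin-independent branches, with ROR and RYK receptors. In the eye the pathway is known for its part in the specification of the pigment epithelium.

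On the soft gel 10 of the 34 members with enough counts changed against Control, or 29.4% beside 30.6% of all genes tested, and the changes went in both directions. The ligand WNT7B, the receptors FZD1 and FZD7, the transcription factor TCF7 and the feedback gene AXIN2 rose. The secreted inhibitors DKK1 and DKK2, the ligand WNT5B, the receptor FZD9 and the destruction complex gene APC fell. In sh_PIP4K2B none of the 34 members passed the same threshold against Control, beside 5.54% of all genes tested. Of the 34, 10 had an unadjusted p below 0.05 by edgeR, or 29.4%, beside 33.2% of all genes tested. DESeq2 called 3 of the 38 it tested, or 7.89%, beside 13.6% of all genes with its adjusted p.

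The promoter of DKK1 is shown because DKK1 had the lowest adjusted p of all members in Soft, and that of FZD1 because it was the receptor with the largest rise. Both are the 250 bases before the start in the RefSeq promoters of GRCh38.p14, on the plus strand, from chr10:52314031-52314280 and chr7:91264183-91264432. Capitals mark the core motif of TCF/LEF factors, CTTTGA, and that of TEAD factors, CATTCC, the DNA-binding partners of YAP, read on either strand.
DKK1: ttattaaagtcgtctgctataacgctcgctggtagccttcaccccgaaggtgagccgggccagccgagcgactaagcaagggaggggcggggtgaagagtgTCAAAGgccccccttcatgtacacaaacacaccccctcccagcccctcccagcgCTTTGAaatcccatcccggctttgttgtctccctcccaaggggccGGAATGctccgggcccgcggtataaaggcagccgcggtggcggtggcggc
FZD1: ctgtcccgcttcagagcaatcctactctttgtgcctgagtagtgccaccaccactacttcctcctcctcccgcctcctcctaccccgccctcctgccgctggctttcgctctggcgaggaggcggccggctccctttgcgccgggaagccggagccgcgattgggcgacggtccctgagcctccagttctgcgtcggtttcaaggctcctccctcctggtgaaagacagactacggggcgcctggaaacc

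The DKK1 promoter held the TCF/LEF core 149 bases before the start on the minus strand and 95 bases before it on the plus strand. It held the TEAD core 50 bases before the start on the minus strand, and none of these matches overlap. These letters were not in the window of FZD1. Over windows from 250 bases before to 50 after a start, 12.9% of 35116 RefSeq promoters held the TCF/LEF core and 14.0% the TEAD core. Of 46 such promoters, which belong to 38 members, the TCF/LEF core was in 1 and the TEAD core in 4, those of APC, DKK1, RNF43 and WNT16. The exon bases of DKK1, which begin where the printed window ends, lie in part opposite PRKG1-AS1. Whether the window itself overlaps that gene was not computed. No promoter sequence of WNT7B, AXIN2, DKK2 or FZD7 was used here.

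Total counts ran from 19217336 to 24020796 per library, and the floor, set at 3 counts, came to 0.131 to 0.148 CPM (TMM-normalised counts scaled to a common library total). PIP4K2B itself was at 123, 124 and 119 CPM in Control, at 48.4, 40.9 and 36.6 CPM with hairpins #1, #2 and #3, and at 119, 122 and 127 CPM in Soft. The hairpin libraries differed from each other more than the others did. Over all genes tested the SD of log2 CPM had a median of 0.36 among hairpin libraries, beside 0.08 among Control and 0.07 among Soft libraries. Of 12 markers of pigment epithelium 10 were under 1 CPM in every library, RPE65, TYR, TTR and RGR being at or near 0, while the transcription factors MITF and OTX2 were expressed. Keratins KRT8 and KRT18 and the mesenchymal VIM were abundant, and CDH1 and EPCAM were at or near 0. In Soft, where 30.6% of all genes tested passed, at least 1 marker passed in marker lists of 5 kinds. Some of these changes were also seen with the hairpins. Of the 12 pigment epithelium markers OTX2 and BEST1 rose. OTX2 went from a mean of 10.9 CPM in Control to 17.1 CPM with the hairpins (adjusted p = 0.0091, edgeR) and 37.2 CPM in Soft. MITF was at 35.9, 34.3 and 39.3 CPM in Control and lower in Soft, at 26.3, 25.8 and 25.9 CPM. It missed the threshold (log2 fold change -0.49, SE 0.15, adjusted p = 0.026, edgeR). The sum, mostly MITF and OTX2, was between 45.9 and 51.9 CPM in Control and between 62.7 and 68.1 CPM in Soft. With the hairpins it was between 41.3 and 58.3 CPM. Of 5 epithelial markers KRT8 and KRT18 fell. The sum over the list was between 2335 and 2482 CPM in Control and between 1238 and 1272 CPM in Soft. With the hairpins it was between 1235 and 1542 CPM. KRT18 passed as lower there too (log2 fold change -1.10, SE 0.15, adjusted p = 0.0018, edgeR), and KRT8 missed the threshold (adjusted p = 0.013, edgeR). Of 6 mesenchymal markers 4 rose, while the sum, mostly VIM, was between 8703 and 8799 CPM in Control and between 6421 and 6751 CPM in Soft. The others, VIM and COL1A2, were lower in Soft and missed the threshold. COL1A2 had 20, 14 and 13 counts in Control and 1, 4 and 5 in Soft (log2 fold change -2.16, SE 0.56, adjusted p = 0.011, edgeR). It met the filter on counts only through the Control libraries. With all 3 hairpins COL1A1 was above Control but missed the threshold (log2 fold change 1.04, SE 0.24, adjusted p = 0.020, edgeR). Of 3 endothelial markers PECAM1 rose, their sum being below 1 CPM in Control and between 4.87 and 5.85 CPM in Soft, with CDH5 at 0. PECAM1 had 1, 1 and 5 counts in Control and 103, 112 and 97 in Soft. PECAM1 and BEST1 met the filter on counts only through the Soft libraries, so a call could hardly have gone the other way. Of 2 blood markers CD68 rose, their sum being between 64.2 and 68.8 CPM in Control and between 143 and 148 CPM in Soft, with PTPRC below 1 CPM. No mesenchymal, endothelial or blood marker passed with the hairpins. Their part in the results was not tested. In bulk RNA, fewer cells of a type and less RNA per cell cannot be told apart.

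Of the 55 members 34 had enough counts to be tested. Another 10 had no count in any of the 9 libraries, which allows at most the floor in each, and 11 had too few. The silent genes were WNT1, WNT6, WNT7A, WNT8A, WNT9B, WNT10A, FZD10, DKK4, SFRP2 and NKD2. Tests used edgeR's quasi-likelihood method in 1 fit over the 9 libraries, with adjustment by Benjamini-Hochberg over all 13784 genes tested and a threshold of 0.01. Against Control, 5.54% of all genes passed in sh_PIP4K2B, 2.76% higher and 2.77% lower. In Soft 30.6% passed, 15.8% higher and 14.8% lower, and between Soft and sh_PIP4K2B 30% passed, 14.5% higher and 15.5% lower in Soft. Members passed at 29.4% in Soft against Control (10 of 34, with 5 higher and 5 lower) and at 32.4% in Soft against sh_PIP4K2B (11 of 34, with 7 higher and 4 lower), close to these shares. Both comparisons against Control share its 3 libraries. The median log2 fold change of the 34 members was 0.02 in sh_PIP4K2B and 0.11 in Soft, beside 0.05 and 0.01 over all genes tested.

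**Figure D1:**
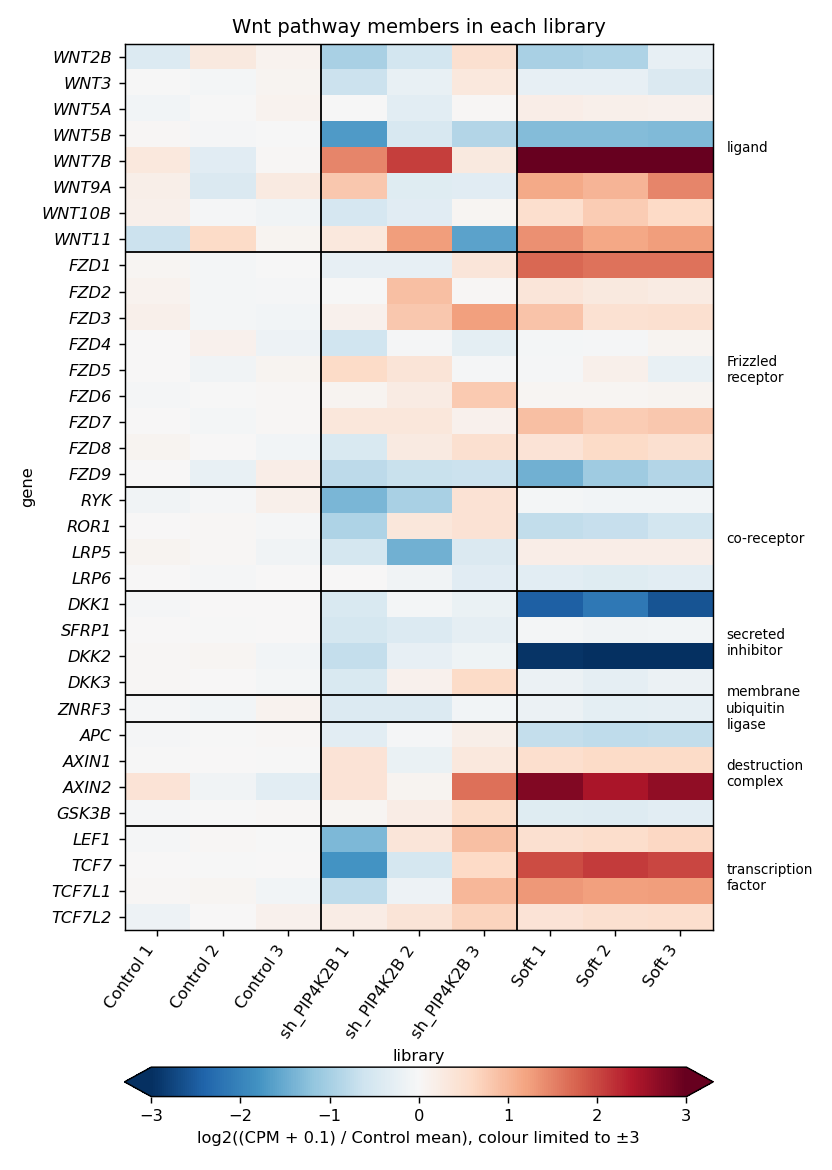
Each cell is the log2 ratio of CPM (plus 0.1) in 1 library, in columns, to the Control mean of that gene, in rows grouped by role, for the 34 members tested. The Soft columns are alike, with WNT7B, AXIN2, TCF7 and FZD1 high and DKK1 and DKK2 low, while the 3 hairpin columns differ from each other in TCF7, LEF1, RYK and WNT7B.

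Ligands came first. Of 19 WNT genes 8 were tested, 6 had no count and 5 (WNT2, WNT3A, WNT4, WNT8B and WNT16) had few. To compare genes, counts were divided by transcript length and rescaled to the same total in every library, that of TPM values (length-scaled level). On this scale WNT5B was the highest ligand in Control, at 422 ± 10.3 (SD, n = 3), followed by WNT5A at 39.2 ± 2.78, WNT3 at 8.15 ± 0.406 and WNT10B at 3.40 ± 0.323. The other 4 ligands tested were below 1. WNT5B thus made up 89.0% ± 0.667 of the length-scaled level of all WNT genes in Control, 80.3% ± 7.25 in sh_PIP4K2B and 71.7% ± 0.531 in Soft (SD, n = 3).

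WNT5B, which lies at chr12:1529891-1647212 on the plus strand, was at 400, 377 and 387 CPM in Control, at 119, 280 and 209 CPM with hairpins #1, #2 and #3, and at 156, 157 and 154 CPM in Soft. All 6 libraries outside Control were below all 3 Control libraries, and the Soft values lay within the range of the hairpins. In Soft it fell 2.49-fold (log2 fold change -1.32, SE 0.25, adjusted p = 0.0023, edgeR). With the hairpins the log2 fold change came to -0.94 (SE 0.25, adjusted p = 0.032, edgeR), which missed the threshold in this fit and passed it with DESeq2 (adjusted p = 0.0021). Between Soft and sh_PIP4K2B the difference was -0.38 on the log2 scale (SE 0.25, adjusted p = 0.23, edgeR). Without Soft replicate 1, 2 or 3 the call in Soft was lost, with adjusted p between 0.0117 and 0.0125 (edgeR).

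WNT7B, a ligand of the canonical pathway at chr22:45920366-45977162 on the minus strand, had the largest change of all members. Its CPM was 0.605, 0.351 and 0.480 in Control and 16.8, 14.4 and 14.8 in Soft. With hairpins #1, #2 and #3 it was 1.47, 2.31 and 0.593 CPM. The Soft libraries were far above all others, while hairpin #3 was within the Control range and hairpins #1 and #2 above it. In Soft WNT7B rose 32.0-fold (log2 fold change 4.99, SE 0.42, adjusted p = 3.0e-05, edgeR). With the hairpins the log2 fold change came to 1.60 (SE 0.44, adjusted p = 0.037, edgeR) and passed with DESeq2 (adjusted p = 0.0038), and Soft was above sh_PIP4K2B (log2 fold change 3.39, SE 0.37, adjusted p = 1.3e-04, edgeR). Its length-scaled level in Soft, 9.81 ± 0.811 (SD, n = 3), was above that of WNT3, 6.80 ± 0.455, which in Control had been the higher by far.

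WNT10B, another canonical ligand, was at 3.49, 3.03 and 2.88 CPM in Control, at 2.16, 2.46 and 3.26 CPM with the hairpins, and at 4.47, 5.38 and 4.78 CPM in Soft. The Soft libraries were above all others, and hairpin #3 fell in the Control range. WNT10B differed between Soft and sh_PIP4K2B (log2 fold change 0.89, SE 0.20, adjusted p = 0.0055, edgeR) but not past the threshold between Soft and Control (0.64, SE 0.20, adjusted p = 0.024, edgeR). The first call was lost without any 1 Control or Soft library and without hairpin #2 (adjusted p between 0.0106 and 0.0280, edgeR), and with the replicate number as a block (adjusted p = 0.015, edgeR).

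The other ligands did not pass. WNT5A, the relative of WNT5B, was at 88.1, 93.1 and 100 CPM in Control and at 108, 104 and 102 CPM in Soft (log2 fold change 0.16, SE 0.12, adjusted p = 0.28, edgeR). Its hairpin values of 92.6, 75 and 96.5 CPM overlapped those of Control. In Soft, WNT3 differed by -0.31 on the log2 scale (SE 0.22, adjusted p = 0.26, edgeR). WNT2B, WNT9A and WNT11 stayed at or below 2.07 CPM in every library. Of these WNT9A was at 0.326, 0.175 and 0.349 CPM in Control and at 0.729, 0.666 and 0.938 CPM in Soft (log2 fold change 1.44, SE 0.45, adjusted p = 0.026, edgeR). WNT9A and WNT11 met the filter on counts only through the Soft libraries, so a call could hardly have gone the other way. Of the exon bases of WNT2B 24% lie opposite ST7L.

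**Figure D2:**
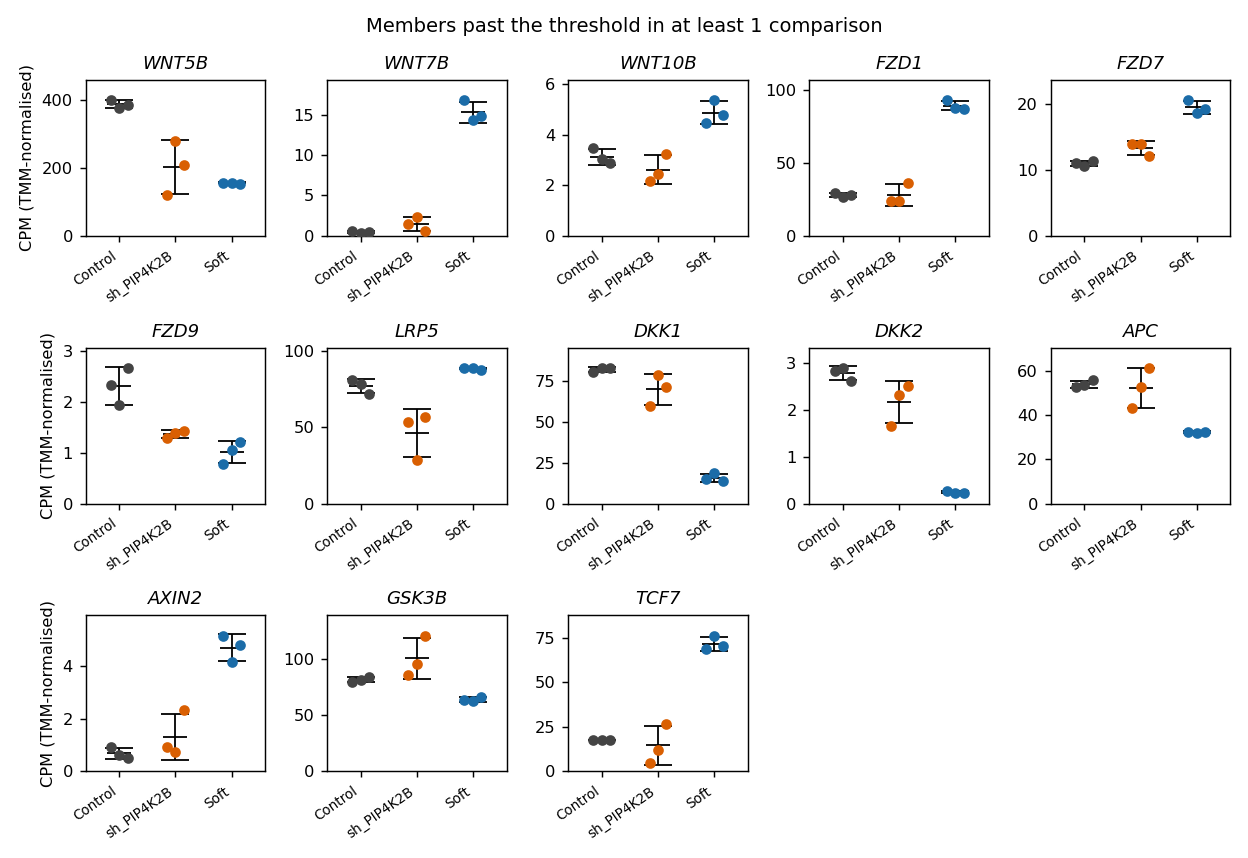
Points are the CPM of each library for the 13 members past the threshold in at least 1 of the 3 comparisons, black lines the mean ± SD of 3 libraries, and each axis starts at 0. Soft libraries are tightly grouped, whereas hairpin libraries spread widely in WNT5B (119 to 280 CPM), TCF7 (5.02 to 26.9 CPM) and LRP5 (28.4 to 56.7 CPM).

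Frizzled receptors are 7-pass membrane proteins whose outer domain binds WNT proteins. Of 10 genes 9 were tested and FZD10 had no count. In Control the order of length-scaled levels was FZD2 at 46.1 ± 2.43, FZD6 at 39.9 ± 1.32, FZD8 at 28.9 ± 1.52, FZD4 at 13.5 ± 1.32, FZD1 at 10.01 ± 0.433 and FZD7 at 5.86 ± 0.203 (SD, n = 3). FZD9 at 2.40 ± 0.386 and FZD5 at 2.16 ± 0.158 did not differ beyond their spread, and FZD3 was lowest at 0.148 ± 0.0137. The sum over the family was 149 ± 2.78 in Control, 189 ± 29.5 in sh_PIP4K2B and 205 ± 0.680 in Soft.

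FZD1, an intronless gene at chr7:91264433-91271326 on the plus strand, was at 29.7, 27.0 and 28.3 CPM in Control and at 93.3, 88.2 and 87.3 CPM in Soft. Its hairpin values were 24.0, 23.7 and 36.6 CPM, on both sides of Control. The rise in Soft was 3.16-fold (log2 fold change 1.66, SE 0.17, adjusted p = 7.7e-05, edgeR), and Soft was above sh_PIP4K2B by 1.67 on the log2 scale (SE 0.17, adjusted p = 9.0e-05, edgeR). FZD1 went from 6.71% ± 0.208 of the summed Frizzled level in Control to 16.0% ± 0.471 in Soft (SD, n = 3). Its length-scaled level in Soft, 32.8 ± 1.06, was above that of FZD4, 14.0 ± 0.889, which had been ahead of it in Control.

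FZD7, of the same subfamily as FZD1 and FZD2, was at 11.1, 10.6 and 11.4 CPM in Control, at 14.0, 14.0 and 12.1 CPM with the hairpins, and at 20.6, 18.7 and 19.3 CPM in Soft. All 3 hairpin libraries were above Control and below Soft. FZD7 rose 1.77-fold in Soft (log2 fold change 0.82, SE 0.11, adjusted p = 4.0e-04, edgeR), and with the hairpins its log2 fold change was 0.28 (SE 0.11, adjusted p = 0.12, edgeR). Soft was above sh_PIP4K2B by 0.55 (SE 0.11, adjusted p = 0.0037, edgeR), a call lost without any 1 Soft library (adjusted p between 0.0132 and 0.0220, edgeR) and with the replicate block (adjusted p = 0.011, edgeR).

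FZD9 was the receptor that fell. Its CPM was 2.33, 1.93 and 2.66 in Control, 1.29, 1.40 and 1.43 with the hairpins and 0.775, 1.05 and 1.21 in Soft, so that the 3 groups did not overlap. The log2 fold change was -1.19 in Soft (SE 0.24, adjusted p = 0.0033, edgeR) and -0.75 with the hairpins (SE 0.24, adjusted p = 0.058, edgeR). Without Control replicate 1 or 3, or Soft replicate 1 or 2, the call in Soft was lost (adjusted p between 0.0143 and 0.0195, edgeR).

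The 4 Frizzled genes most abundant in Control did not pass in any comparison of the fit over 9 libraries. In Soft the log2 fold change was 0.30 for FZD2 (SE 0.22, adjusted p = 0.30, edgeR), 0.06 for FZD6 (SE 0.16, adjusted p = 0.79, edgeR), 0.48 for FZD8 (SE 0.20, adjusted p = 0.073, edgeR) and -0.01 for FZD4 (SE 0.15, adjusted p = 0.98, edgeR). FZD2 had 1 high hairpin library, at 134 CPM with hairpin #2 beside 70.3 and 73.4 CPM with the other two. FZD3 and FZD5 likewise passed nowhere. Of the exon bases of FZD4 18.9% lie opposite PRSS23, and whether counting used strand is not given in the sources used here.

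Among co-receptors and other receptors 4 of 5 were tested and none passed against Control. LRP5 and LRP6 are the co-receptors that recruit AXIN to the membrane. LRP5, at chr11:68312591-68449275 on the plus strand, was at 81.0, 78.5 and 71.9 CPM in Control, at 53.7, 28.4 and 56.7 CPM with the hairpins, and at 88.9, 88.8 and 87.8 CPM in Soft. Every hairpin library was below Control and every Soft library above it. The difference between Soft and sh_PIP4K2B passed (log2 fold change 0.94, SE 0.22, adjusted p = 0.0070, edgeR), whereas neither comparison against Control did. These log2 fold changes were -0.74 with the hairpins (SE 0.22, adjusted p = 0.046, edgeR) and, for Soft, 0.20 (SE 0.22, adjusted p = 0.48, edgeR). The call was lost without any 1 Control or Soft library (adjusted p between 0.0135 and 0.0244, edgeR). It was also lost with library size scaling (adjusted p = 0.016, edgeR) and in a fit of the Soft and hairpin libraries alone (adjusted p = 0.027, edgeR).

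LRP6 was at 73.4, 71.8 and 73.9 CPM in Control, at 73.5, 67.5 and 57.9 CPM with the hairpins, and at 58.4, 56.6 and 59.0 CPM in Soft. The Soft libraries were below Control, and only hairpin #3 was near them. Its log2 fold change in Soft was -0.33 (SE 0.11, adjusted p = 0.027, edgeR). RYK and ROR1, receptors of WNT5A, varied mostly between hairpins. RYK was at 22.9, 30.3 and 79.8 CPM with hairpins #1, #2 and #3 and at 54.7, 58.2 and 65.4 CPM in Control, and ROR1 at 23.0, 55.2 and 59.1 CPM beside 44.5, 44.8 and 42.6 CPM. ROR1 was at 26.3, 27.0 and 30.1 CPM in Soft (log2 fold change -0.66, SE 0.29, adjusted p = 0.085, edgeR). ROR2, the other ROR receptor, had no count in the 6 libraries on glass and 6, 1 and 2 counts on the gel, too few to test.

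Secreted inhibitors bind WNT proteins (SFRP), block LRP5 and LRP6 (DKK1 and DKK2) or remove the lipid of WNT proteins (NOTUM). Of 9 genes 4 were tested. SFRP1 and DKK3 were the most abundant members of all, at length-scaled levels of 786 ± 11.1 and 671 ± 19.0 in Control (SD, n = 3). Neither passed. For SFRP1 the log2 fold changes were -0.09 (Soft, SE 0.11, adjusted p = 0.56, edgeR) and -0.40 with the hairpins (SE 0.12, adjusted p = 0.043, edgeR), all 3 hairpins being below Control, and DESeq2 called it in the latter. DKK3, whose role in Wnt signalling is disputed, was at 503, 757 and 1028 CPM with hairpins #1, #2 and #3, on both sides of the 669 to 710 CPM of Control.

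DKK1, at chr10:52314281-52318042 on the plus strand just behind the promoter printed above, was at 80.6, 83.2 and 83.3 CPM in Control and at 14.9, 18.5 and 13.7 CPM in Soft. With hairpins #1, #2 and #3 it was at 60.0, 78.7 and 71.8 CPM. Soft was far below all 6 libraries on glass, and the hairpin libraries were all slightly below Control. DKK1 fell 5.25-fold in Soft (log2 fold change -2.39, SE 0.15, adjusted p = 8.7e-06, edgeR). With the hairpins the log2 fold change came to -0.23 (SE 0.14, adjusted p = 0.28, edgeR), and the difference between Soft and sh_PIP4K2B was -2.16 (SE 0.15, adjusted p = 1.6e-05, edgeR). Of the exon bases of DKK1 12.6% lie opposite PRKG1-AS1.

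DKK2, a relative at chr4:106921802-107283806 on the minus strand, was far less abundant and changed in the same direction. It was at 2.84, 2.90 and 2.62 CPM in Control, at 1.66, 2.31 and 2.52 CPM with the hairpins, and at 0.273, 0.238 and 0.223 CPM in Soft. Soft lay well below the libraries on glass, near the floor. The fall in Soft was 11.4-fold (log2 fold change -3.48, SE 0.27, adjusted p = 2.2e-05, edgeR), and the difference from sh_PIP4K2B was -3.11 (SE 0.27, adjusted p = 5.2e-05, edgeR). DKK1 made up 7.09% ± 0.189 of the length-scaled level of all secreted inhibitors in Control and 1.58% ± 0.286 in Soft, and the sum over these genes was 1570 ± 6.82 in Control and 1390 ± 35.6 in Soft (SD, n = 3).

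NOTUM, a feedback target of beta-catenin, had 1, 0 and 0 counts in Control, 3, 0 and 0 with the hairpins and 15, 9 and 22 in Soft. Counts above the floor of 3 occurred in the Soft libraries alone. It was too low for the filter and was not tested in this fit. Without a filter on low counts it passed in Soft (adjusted p = 0.0026, edgeR), and DESeq2 called it too. SFRP5 had 2, 2 and 1 counts in Soft and none elsewhere, and SFRP4 between 1 and 8 in every library.

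**Figure D3:**
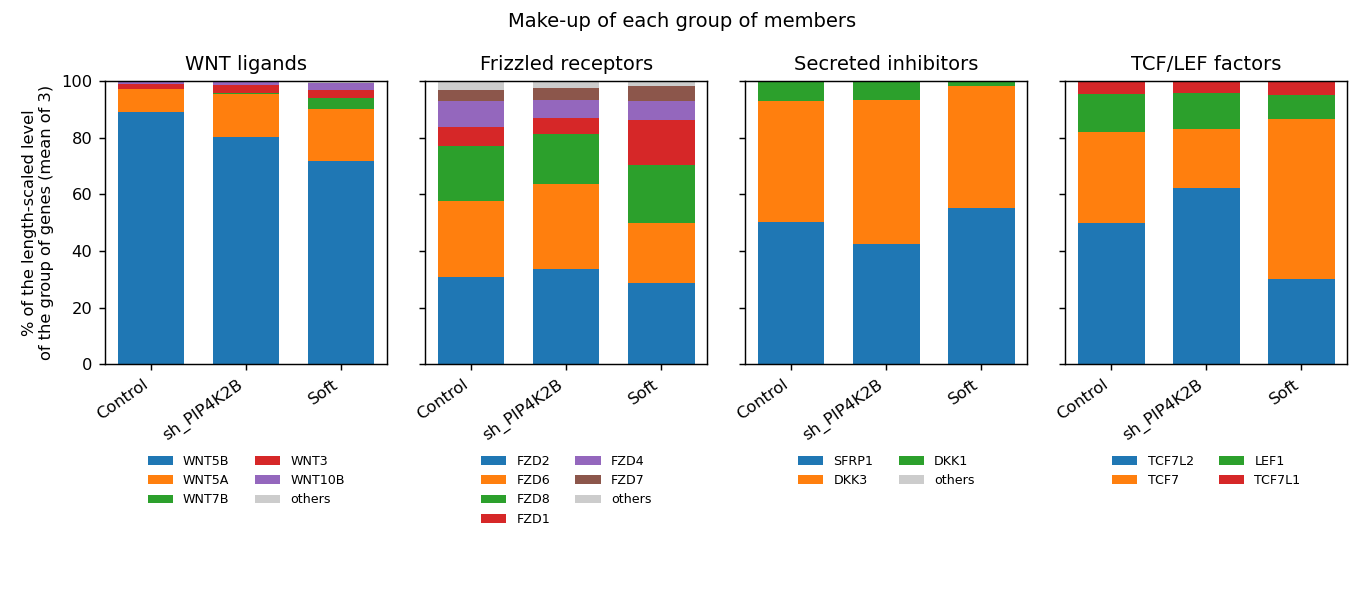
Bars stack the mean share of each gene in the length-scaled level of its group of members (%, mean of 3 libraries), for WNT ligands, Frizzled receptors, secreted inhibitors and TCF/LEF factors in the 3 conditions. WNT5B is 89.0% of the ligands in Control and 71.7% in Soft, FZD1 goes from 6.71% to 16.0% of the receptors, and TCF7 from 32.0% to 56.6% of the factors.

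All 4 genes of the destruction complex were tested. AXIN2, a scaffold of the complex and the classical feedback target of beta-catenin, lies at chr17:65528563-65561648 on the minus strand. It was at 0.931, 0.614 and 0.524 CPM in Control and at 5.15, 4.14 and 4.78 CPM in Soft. Hairpins #1 and #2 were near Control, at 0.920 and 0.722 CPM, and hairpin #3 was above it at 2.32 CPM. In Soft AXIN2 rose 6.80-fold (log2 fold change 2.76, SE 0.42, adjusted p = 7.3e-04, edgeR). With the hairpins the log2 fold change came to 0.93 (SE 0.44, adjusted p = 0.18, edgeR). Soft was above sh_PIP4K2B by 1.83 (SE 0.40, adjusted p = 0.0050, edgeR), a call lost without Control replicate 2, hairpin #1 or #2 or any 1 Soft library (adjusted p between 0.0102 and 0.0212, edgeR). Another annotated gene on the same strand, ENSG00000266076, covers 30.9% of the exon bases of AXIN2, and its count is uncertain to that extent.

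AXIN1, the scaffold that is not a feedback gene, was at 31.8, 32.5 and 31.7 CPM in Control, at 42.3, 27.8 and 40.0 CPM with the hairpins, and at 45.7, 48.0 and 47.8 CPM in Soft. Soft was above all other libraries, but the log2 fold change of 0.56 missed the threshold (SE 0.15, adjusted p = 0.013, edgeR) and passed it with DESeq2 (adjusted p = 0.0046) and with upper-quartile scaling (adjusted p = 0.0068, edgeR). APC, the scaffold that binds beta-catenin, at chr5:112707518-112846239 on the plus strand, was at 52.8, 53.7 and 55.8 CPM in Control, at 43.3, 52.6 and 61.4 CPM with the hairpins, and at 32.6, 31.9 and 32.4 CPM in Soft. Hairpins straddled Control and Soft was below both. APC fell 1.67-fold in Soft (log2 fold change -0.74, SE 0.13, adjusted p = 0.0014, edgeR) and was 0.70 lower on the log2 scale than in sh_PIP4K2B (log2 fold change -0.70, SE 0.13, adjusted p = 0.0020, edgeR). The latter was lost without any 1 Soft library (adjusted p between 0.0109 and 0.0121, edgeR).

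GSK3B, the kinase that marks beta-catenin, was at 79.8, 81.7 and 84.4 CPM in Control, at 85.6, 95.2 and 121 CPM with the hairpins, and at 63.4, 62.6 and 66.3 CPM in Soft. The groups did not overlap, with the hairpins above Control and Soft below. Only the difference between Soft and sh_PIP4K2B passed (log2 fold change -0.65, SE 0.13, adjusted p = 0.0031, edgeR). Against Control the log2 fold changes were -0.36 on the gel (SE 0.13, adjusted p = 0.046, edgeR) and 0.29 with the hairpins (SE 0.13, adjusted p = 0.14, edgeR). Without any 1 Soft library the difference missed the threshold (adjusted p between 0.0136 and 0.0173, edgeR).

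The 4 TCF/LEF factors, which bring beta-catenin to DNA, were all expressed. Their summed length-scaled level was 40.9 ± 2.27 in Control, 51.1 ± 21.5 in sh_PIP4K2B and 97.4 ± 3.53 in Soft (SD, n = 3). TCF7, also known as TCF1, at chr5:134114681-134151865 on the plus strand, was at 17.8, 17.4 and 17.7 CPM in Control and at 68.7, 76.3 and 70.6 CPM in Soft. With hairpins #1, #2 and #3 it was at 5.02, 12.1 and 26.9 CPM, the first 2 below Control and the last above it. TCF7 rose 4.08-fold in Soft (log2 fold change 2.03, SE 0.45, adjusted p = 0.0052, edgeR) and was higher there than in sh_PIP4K2B (log2 fold change 2.29, SE 0.45, adjusted p = 0.0030, edgeR). The hairpins spread widely, and all groups share a single estimate of spread in this fit. Without any 1 Control or Soft library the call in Soft was lost, with adjusted p between 0.0154 and 0.0242 (edgeR), and the call against sh_PIP4K2B was lost without hairpin #2 or any 1 Soft library (adjusted p between 0.0103 and 0.0131, edgeR).

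TCF7L1, mostly a repressor, was at 2.37, 2.41 and 2.18 CPM in Control, at 1.33, 2.07 and 4.74 CPM with the hairpins, and at 5.88, 5.57 and 5.63 CPM in Soft. Soft was above all other libraries (log2 fold change 1.29, SE 0.38, adjusted p = 0.019, edgeR). TCF7L2 was at 30.5, 34.6 and 37.5 CPM in Control, at 39.9, 44.4 and 54.6 CPM with the hairpins, and at 45.5, 47.5 and 48.1 CPM in Soft. All libraries outside Control were above it, by 0.46 on the log2 scale on the gel (SE 0.13, adjusted p = 0.019, edgeR) and 0.44 with the hairpins (SE 0.13, adjusted p = 0.053, edgeR). LEF1 was at 7.87, 8.29 and 7.95 CPM in Control, at 3.08, 10.3 and 15.1 CPM with the hairpins, and at 11.3, 11.6 and 12.3 CPM in Soft. Its log2 fold change in Soft was 0.55 (SE 0.42, adjusted p = 0.31, edgeR), and the hairpins spanned the Control and Soft values. In a fit of the 6 Control and Soft libraries alone, TCF7L1, TCF7L2, LEF1, AXIN1, LRP5, LRP6, GSK3B and WNT10B also passed in Soft. So did DKK3, FZD2, FZD8, ROR1, WNT3, WNT9A and WNT11. In that fit 25 of 34 members were called, or 73.5%, beside 70.7% of all genes tested in it.

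Of 8 feedback targets of beta-catenin 5 were tested. AXIN2 and TCF7 rose in Soft, DKK1 fell, and LEF1 and ZNRF3 did not pass. The share called was 60% of these 5 genes, beside 30.6% of all genes tested, and the difference was not tested. ZNRF3, a ubiquitin ligase that removes Frizzled receptors from the membrane, was at 11.3, 10.9 and 12.3 CPM in Control, at 8.65, 8.67 and 10.8 CPM with the hairpins, and at 10.2, 9.33 and 9.47 CPM in Soft (log2 fold change -0.25, SE 0.13, adjusted p = 0.14, edgeR). All libraries outside Control were below it. RNF43, its relative, had between 2 and 11 counts in every library and NKD1 at most 2, both too few to test. Exons of ENSG00000285897 on the same strand cover 71.0% of the exon bases of RNF43, whose count is uncertain to that extent.

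**Figure D4:**
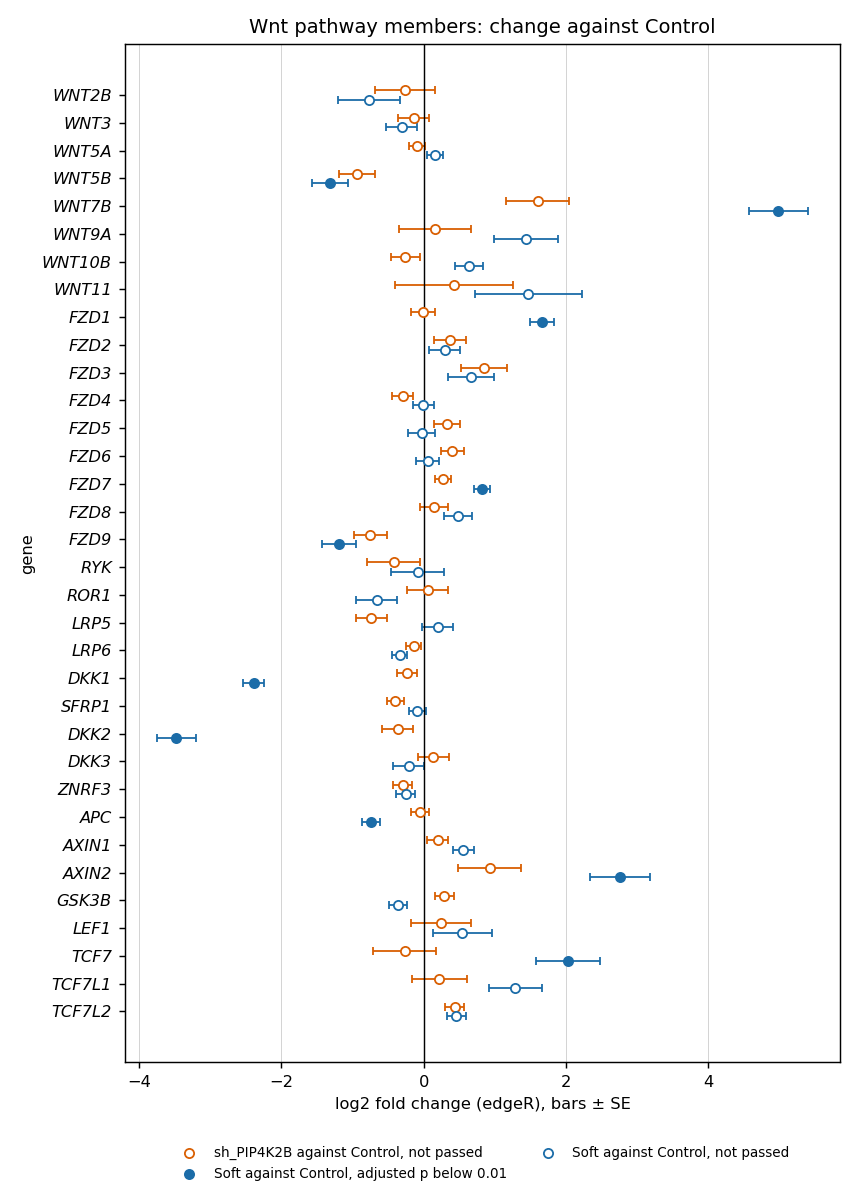
Log2 fold changes against Control with their SE for the 34 members tested, in sh_PIP4K2B (orange) and in Soft (blue), filled where the adjusted p was below 0.01. All sh_PIP4K2B symbols are open, 10 Soft symbols are filled, and the Soft values run from -3.48 (DKK2) to 4.99 (WNT7B). Both comparisons share the Control libraries.

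In sh_PIP4K2B the largest values were those of WNT7B (1.60) and WNT5B (-0.94), and the lowest adjusted p was 0.032, that of WNT5B (edgeR). The 10 members with an unadjusted p below 0.05 in edgeR's test were FZD3, FZD6, FZD7, FZD9, GSK3B, LRP5, SFRP1, TCF7L2, WNT5B and WNT7B, 6 higher and 4 lower. Over all genes tested 33.2% had such a p. DESeq2 called SFRP1, WNT5B and WNT7B. In edgeR's fit without hairpin #1, WNT5B passed. Without hairpin #2, WNT5B and LRP5 passed, and without hairpin #3, WNT7B, SFRP1 and RYK did. Leaving out hairpin #1, #2 or #3 also brought the members called in Soft against Control to 19, 12 and 16, or 51.4%, 32.4% and 44.4% of those tested, beside 45.6%, 36.9% and 41.7% of all genes tested in the same fits.

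The rest of the pathway was counted over 76 further genes, of which 60 were tested. In Soft 16 rose and 4 fell, or 33.3% beside 30.6% of all genes tested. WLS, which carries WNT proteins to the cell surface, was at 113, 114 and 117 CPM in Control and at 215, 241 and 224 CPM in Soft (log2 fold change 0.98, SE 0.14, adjusted p = 4.5e-04, edgeR). RSPO3, a secreted protein that protects Frizzled receptors from RNF43 and ZNRF3, was at 0.233, 0.219 and 0.480 CPM in Control, at 1.06, 0.578 and 0.988 CPM with the hairpins, and at 7.29, 6.19 and 7.46 CPM in Soft. The 3 groups did not overlap, and the rise in Soft (log2 fold change 4.46, SE 0.34, adjusted p = 1.8e-05, edgeR) was the largest of the 60 genes. KREMEN1, a receptor of DKK1, rose in Soft (0.92, SE 0.19, adjusted p = 0.0035, edgeR) and had a log2 fold change of -1.02 with the hairpins (SE 0.20, adjusted p = 0.011, edgeR). CTNNB1, which encodes beta-catenin, did not pass (0.13 in Soft, SE 0.22, adjusted p = 0.66, edgeR).

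Of 11 receptors and planar polarity genes 9 were tested, and PTK7, CELSR2 and VANGL2 rose in Soft while PRICKLE1 fell. VANGL2 had 6, 7 and 3 counts in Control, 4, 11 and 15 with the hairpins and 52, 56 and 48 in Soft. It met the filter on counts only through the Soft libraries, so its call could hardly have gone the other way. PTK7 was at 104, 102 and 99.1 CPM in Control and at 206, 202 and 205 CPM in Soft (log2 fold change 1.01, SE 0.13, adjusted p = 2.7e-04, edgeR). Of 21 cytoplasmic genes DVL2 and DVL3, which link Frizzled to the destruction complex, rose in Soft and BTRC, a ubiquitin ligase subunit that recognises beta-catenin, fell. Of 13 nuclear genes PYGO2, TLE2, TLE3 and HBP1 rose. TLE proteins are co-repressors that occupy TCF factors in the absence of beta-catenin. TLE3 was at 40.1, 43.0 and 38.9 CPM in Control and at 121, 108 and 115 CPM in Soft (log2 fold change 1.50, SE 0.26, adjusted p = 0.0016, edgeR).

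Of 14 genes reported as Wnt targets in many cell types 10 were tested. In Soft VEGFA, ID2, BMP4 and TCF4 rose, and CCND1 and MYC, both drivers of the cell cycle, fell. This was 60% of those tested, beside 30.6% of all genes tested, and the difference was not tested. CCND1 was at 2358, 2353 and 2418 CPM in Control and at 489, 553 and 504 CPM in Soft (log2 fold change -2.20, SE 0.20, adjusted p = 5.0e-05, edgeR). MYC was at 106, 103 and 104 CPM in Control, at 50.1, 99.6 and 149 CPM with the hairpins, and at 33.5, 38.2 and 34.8 CPM in Soft (log2 fold change -1.55, SE 0.31, adjusted p = 0.0030, edgeR). In sh_PIP4K2B 4 of the 60 genes rose and none fell, or 6.67% beside 5.54% of all genes tested. They were HBP1 (1.52, SE 0.10, adjusted p = 1.4e-04, edgeR), ID2 (1.64, SE 0.23, adjusted p = 0.0023, edgeR), VEGFA (0.80, SE 0.14, adjusted p = 0.0053, edgeR) and TLE4 (0.71, SE 0.12, adjusted p = 0.0053, edgeR). HBP1, a repressor of TCF targets, was at 23.0, 25.6 and 26.1 CPM in Control, at 74.7, 68.1 and 72.0 CPM with the hairpins and at 86.3, 81.7 and 89.5 CPM in Soft. All 6 libraries outside Control were well above it.

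**Figure D5:**
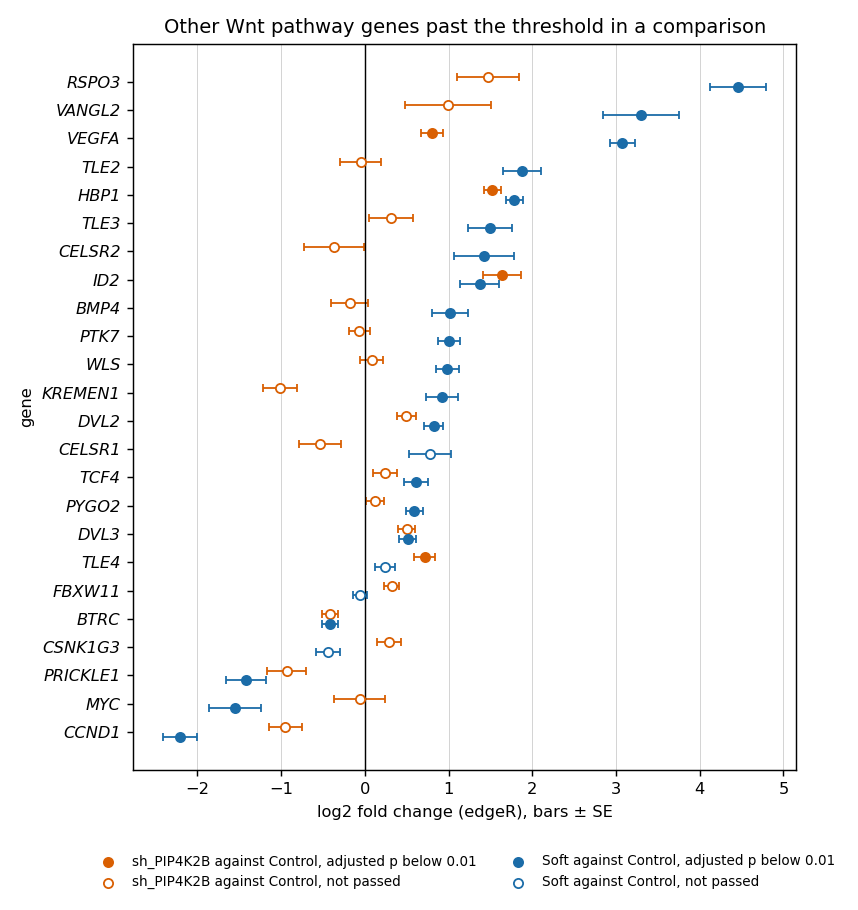
Log2 fold changes against Control with their SE for the other pathway genes past the threshold in at least 1 comparison, in sh_PIP4K2B (orange) and Soft (blue), ordered by the Soft value and filled where the adjusted p was below 0.01. RSPO3 (4.46), VANGL2 and VEGFA are at the top and CCND1 (-2.20) at the bottom, and HBP1, ID2, VEGFA and TLE4 are the filled sh_PIP4K2B symbols. VANGL2 met the filter on counts only through the Soft libraries.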

How the data were processed

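RNA of 9 libraries was measured, 3 each of Control, sh_PIP4K2B and Soft. The authors sequenced stranded mRNA libraries in paired mode and used STAR with GRCh38/hg38. What they deposited are estimated counts for each gene and library, with no normalisation or pooling. The submitters' processing notes also name Salmon, and the annotation and strand setting of the counting are not given in the sources used here. Counts were rounded, since 12.3% were not whole.

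A single edgeR fit (version 4.0.16, R 4.3.3) of all libraries used TMM, filterByExpr with a minimum count of 10 and the quasi-likelihood F test. P-values were adjusted by Benjamini-Hochberg, and calls required less than 0.01. The SE was taken from the F statistic. Folds are ratios of mean CPM. Soft against sh_PIP4K2B tests the difference between both effects. The fit was tested on simulated data with changes planted in Soft against Control. Their spread was taken from the Control and Soft libraries alone. The test therefore does not cover the wider spread of the hairpin libraries. Alternatives were no filter, at least 10 counts in every library, library size or upper quartile scaling, DESeq2 1.42.0, fits of 2 conditions, a replicate block, leaving out each library and a threshold of 0.05. Members passing in any comparison with a group mean of at least 1 CPM were named with all values, as were AXIN1, AXIN2, APC, GSK3B, LRP5, LRP6 and the TCF/LEF genes. Other pathway genes and ligands named outside this rule were chosen after their values were seen. The members and lists were chosen with earlier results of these data known. Coordinates and lengths came from GENCODE 44 (GRCh38), with lengths for 24542 of 26475 symbols. Each 75-mer of a transcript was looked up in other genes.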

Additional observations from a re-analysis of the deposited data

Results flagged for a closer look

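GSK3B and LRP5 stood on opposite sides of Control in the 2 treatments. They were picked among the members tested by a rule on these same values. It asked that all hairpin libraries lie on 1 side of all Control libraries and all Soft libraries on the other. It also asked for an adjusted p below 0.01 in Soft against sh_PIP4K2B (edgeR). The order and p-values below are therefore no further evidence, and how many of all genes meet the rule was not counted. GSK3B was above Control in each of the 3 hairpin libraries and below it in each of the 3 Soft libraries, and Soft against sh_PIP4K2B had a log2 fold change of -0.65 (SE 0.13, adjusted p = 0.0031, edgeR). For LRP5 the order was the opposite, with every hairpin library below Control and every Soft library above it, with a log2 fold change of 0.94 (SE 0.22, adjusted p = 0.0070, edgeR). Neither gene passed in either comparison against Control. Both differences missed the threshold when any 1 Soft library was left out. They also missed it in a fit of the Soft and hairpin libraries alone (adjusted p = 0.018 for GSK3B and 0.027 for LRP5, edgeR).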

How the results depend on the processing

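Of 858 values of named members under the alternatives, 760 kept their direction and their side of the threshold, 55 lost it, 31 gained it and 12 turned. Against Control in sh_PIP4K2B the count of members called went from 0 to 3 with DESeq2 and 4 at a threshold of 0.05, while the share of all genes called went from 5.54% to 13.6% and 17.2%. Leaving out 1 library gave 0 to 3 members and 0.471% to 14.4% of all genes. In Soft against Control it went from 10 to 25 in the fit of 6 libraries and 17 at 0.05, while the share of all genes went from 30.6% to 70.7% and 47.1%. Leaving out 1 library gave 7 to 19 members and 17.9% to 45.6% of all genes. In Soft against sh_PIP4K2B it went from 11 to 4 in the fit of 6 libraries, while the share of all genes went from 30% to 16.1%. The calls lost there were those of APC, AXIN2, FZD7, GSK3B, LRP5, TCF7 and WNT10B, with adjusted p between 0.0137 and 0.0274 (edgeR). Leaving out 1 library gave 4 to 15 members and 16.8% to 38.4% of all genes. The cause was not tested. In sh_PIP4K2B against Control library size scaling turned FZD1 to 0.0891 and APC to 0.0454, both near 0, and moved the median of all genes by 0.09 there and 0.11 in Soft. Leaving out 1 library turned 10 values of 7 fold changes. In sh_PIP4K2B against Control they ran from -1.05 to 0.14 (TCF7), -0.25 to 0.10 (FZD1), -0.18 to 0.0741 (APC), -0.27 to 0.66 (LEF1) and -0.45 to 0.55 (TCF7L1). In Soft against sh_PIP4K2B they ran from -0.13 to 0.80 (LEF1) and -0.0854 to 0.15 (TCF7L2).

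Replicate numbers showed no pairing of the libraries in these counts. Deviations of same-numbered libraries correlated at -0.115 to 0.039 over the 3 comparisons, and those of differently numbered libraries at -0.029 to 0.073. Whether libraries were made in pairs cannot be told from this. With the replicate block 0, 10 and 9 members were called, and FZD7 and WNT10B were lost in Soft against sh_PIP4K2B. A minimum of 10 counts in every library left DKK2 and WNT7B untested. Counts of 3 or fewer cannot separate a silent gene from a low one at this depth.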
